A study of Mus musculus with 20 samples.

Results

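The late step of a heart muscle differentiation, day 9 set against day 6, was described in mouse embryonic stem cell cultures by RNA sequencing. Its members were the 6 time course libraries taken at day 9 and day 6, of 20 libraries in the whole series, and each day 9 library was paired with the day 6 library of its own culture. The cells were E14 embryonic stem cells of strain 129/Ola, transduced with lentiviral pLKO.1 vectors that express a short hairpin RNA, and selected with puromycin. The hairpin A culture and the hairpin B culture carried hairpins against Braveheart, a long noncoding RNA, and the third culture carried a scrambled hairpin. Each of the 3 cultures gave 1 library at day 9 and 1 library at day 6, so the replicates of a day were these 3 cultures, which differ in their hairpin. Free embryoid body culture and a directed route to cardiomyocytes with VEGF, Activin A, BMP4 and FGFs are both in the labels of every library, with no word on which was applied. How independent the cultures were is not stated, and the p-values below speak for the spread among these 6 libraries alone, which may be technical. The level of Braveheart itself was not analysed here.

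In this kind of differentiation, pluripotent cells pass through a state like the epiblast, the embryo's founder tissue, and then form a primitive streak, from which mesoderm and endoderm arise. The anterior part of the streak and the tissue it makes, often called the organiser, secretes antagonists of Nodal, BMP and Wnt signals, and part of the mesoderm goes on to form heart muscle. Heart muscle contracts with thin filaments of actin, troponin and tropomyosin that slide along thick filaments of myosin, and the genes for these proteins are switched on as cardiomyocytes form.

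Levels were the deposited FPKM, fragment counts scaled to transcript length and library size, and changes were differences of log2(FPKM + 1), day 9 minus day 6, which understate the change of low genes. The smallest steps between low values implied a depth of about 7730000 to 12200000 fragments in the 6 libraries. At that depth 3 fragments on a transcript of 1 kb correspond to 0.245 to 0.388 FPKM, and this floor covers counting error only. Both hairpin B libraries stood apart from the other libraries of their day. Zfp42, a marker of naive pluripotency, read 53.8, 462 and 46.2 FPKM at day 9 in the hairpin A, hairpin B and scrambled cultures, against 64.4, 349 and 45.8 FPKM at day 6. Pou5f1, the core pluripotency factor, read 102, 602 and 98.8 FPKM at day 9 and 337, 621 and 276 FPKM at day 6 in the same order of cultures. Both genes were highest in hairpin B on both days, and at day 9 all 3 cultures still held Pou5f1, while the label mESC names the starting cells. Results are therefore given for each culture, and counts also without hairpin B. In these bulk libraries, fewer cells of a type and less RNA per cell cannot be told apart.

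Between day 6 and day 9 a small set of genes moved together in all 3 cultures. A much larger set moved in the hairpin A and scrambled cultures, with fewer of those moving in hairpin B. A further set moved in hairpin B with little change in the other cultures. Of 13270 loci tested with limma, with culture as a block and Benjamini-Hochberg adjustment over all of them, 39 rose (0.294%) and 80 fell (0.603%) at an adjusted p under 0.05, which was 0.897% of the loci in all. All 119 of these moved in 1 direction in all 3 cultures, as the test favours. Without the hairpin B culture the same test called 3024 loci higher (23.3%) and 2366 lower (18.2%). It called 26 loci in all without the scrambled culture and 16 without hairpin A, of which 20 and 14 belonged to the 119. Each of these 3 fits rests on 2 cultures and 1 residual degree of freedom before moderation, so its count is uncertain. Of the 52 called genes named here, 12 were called with each culture left out in turn, namely Amot, Car2, Cer1, Cldn6, Crabp1, Cyp26a1, Fgf5, Krt8, Lhx1, Pim2, Rhox6 and Spink3. Without culture as a block, limma called 0 loci, with 1085 at an unadjusted p under 0.05. A change of at least 2-fold in every culture was seen for 15 loci upwards (0.113%) and 41 downwards (0.309%). A change of any size in 1 direction in every culture was seen for 3436 loci upwards (25.9%) and 2926 downwards (22%). In the short gene lists below, 0 or 1 calls are too few to set apart from the shares called over all loci.

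Taken culture by culture, 459 loci were at least 2-fold higher at day 9 in hairpin A (3.46%), 224 in hairpin B (1.69%) and 455 in the scrambled culture (3.43%). At least 2-fold lower were 388 loci in hairpin A (2.92%), 164 in hairpin B (1.24%) and 301 in the scrambled culture (2.27%). The 2-fold higher loci of hairpin A and of the scrambled culture shared 291 members (2.19% of the loci tested), which was 63.4% of the hairpin A set and 64.0% of the scrambled set. Hairpin B shared 28 of its higher loci with the scrambled culture, 12.5% of its own set and 6.15% of the scrambled one. The shared lower loci numbered 206 between hairpin A and scrambled (1.55% of the loci tested, or 53.1% and 68.4% of those sets) and 47 between hairpin B and scrambled (28.7% and 15.6%). Across the 13270 loci the changes of hairpin A and scrambled had a Pearson r of 0.82, those of hairpin B and scrambled 0.22 and those of hairpin B and hairpin A 0.24. These correlations describe loci that share a library, and loci are not independent replicates. Of the 291 loci that were 2-fold higher in hairpin A and scrambled, 15 were also 2-fold higher in hairpin B, where their median change was 0.10. Of the 206 that were 2-fold lower, 41 were also 2-fold lower in hairpin B and 161 were lower there by any amount, with a median change of -0.34. Hairpin B also had its own set among the 13270 loci. At least 2-fold higher there were 100 loci, and 52 were at least 2-fold lower, with a log2 change under 0.5 in both other cultures.

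**Figure D1:**
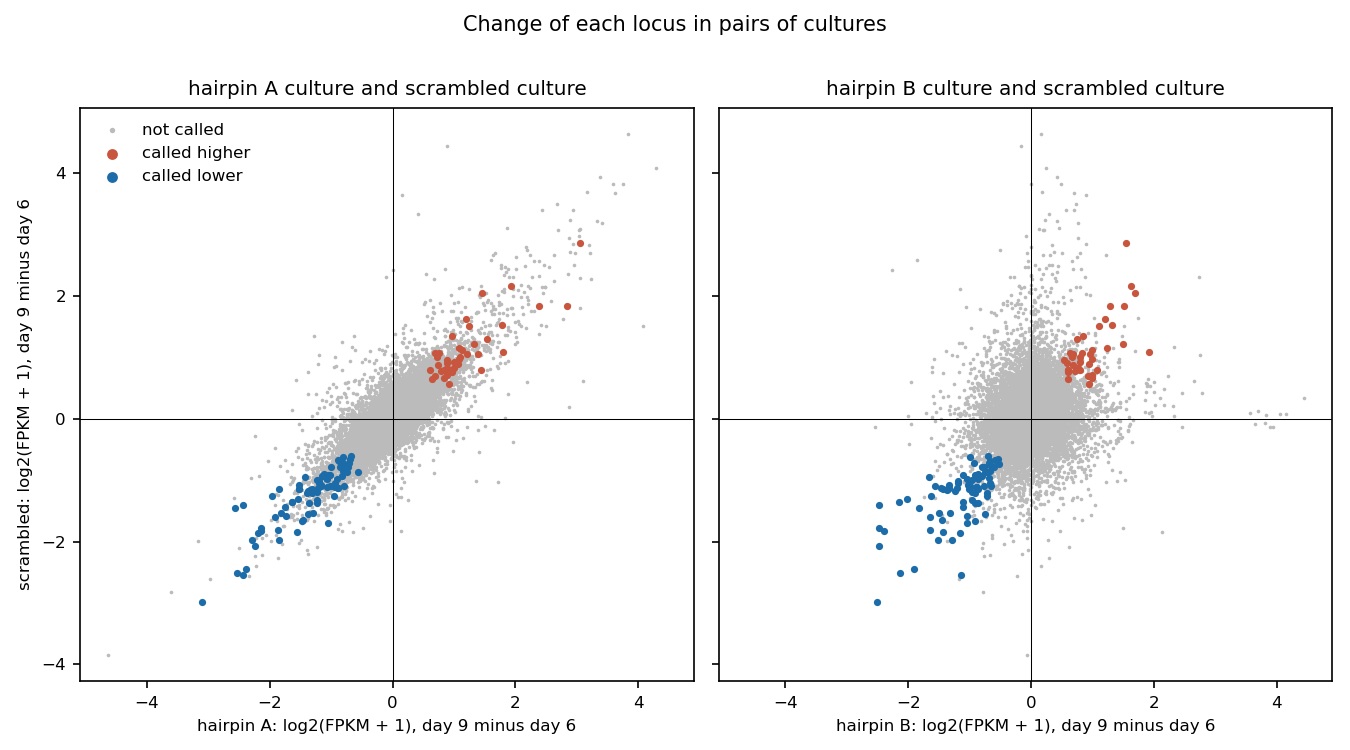
Each point is 1 of 13270 loci, with its change from day 6 to day 9 in the scrambled culture (vertical axis) set against its change in hairpin A (left) or hairpin B (right), both as differences of log2(FPKM + 1). Colours mark the 39 loci called higher and the 80 called lower by limma; the cloud lies along the diagonal for hairpin A (r = 0.82) and much less so for hairpin B (r = 0.22).

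Cer1, Lhx1, Gsc, Eomes, Hesx1, Frzb and Cyp26a1, genes made in the primitive streak or the anterior embryo, fell at the late step. Cer1, a secreted antagonist of Nodal, BMP and Wnt (chromosome 4, 82527654 to 82531055 in mm9), read 7.21, 1.07 and 5.93 FPKM at day 9 in the hairpin A, hairpin B and scrambled cultures. At day 6 it read 69.7, 10.7 and 53.6 FPKM in those cultures. The day 9 level was 0.103, 0.0994 and 0.111 of the day 6 level in them, and all 3 day 9 values lay below all 3 day 6 values. Here and below, such a gap describes genes already called from the same values and is no separate support. Its mean log2 change was -2.86 ± 0.15 (SE) and the adjusted p by limma was 0.00893, the largest fall of all loci called. Lhx1, a transcription factor of the anterior streak (chromosome 11, 84332880 to 84339036), read 2.65, 0.308 and 2.32 FPKM at day 9 against 18.0, 3.92 and 17.0 FPKM at day 6, in the same order of cultures. All day 9 values of Lhx1 lay below all day 6 values, and its fall was -2.24 ± 0.17 (SE) (limma, adjusted p = 0.0189).

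The organiser factor Gsc read 4.32, 0.882 and 4.15 FPKM at day 9 against 12.5, 3.88 and 10.5 FPKM at day 6 in hairpin A, hairpin B and scrambled. Eomes, a T-box factor needed for the streak's mesoderm and endoderm, read 6.91, 4.23 and 6.41 FPKM at day 9 and 21.8, 8.52 and 15.3 FPKM at day 6. Hesx1, a homeobox factor of the anterior embryo, read 4.88, 1.76 and 7.69 FPKM at day 9 and 19.7, 6.76 and 24.2 FPKM at day 6. All 3 fell, by a mean of 1.29, 1.18 and 1.62 on the log2 scale, although the day 6 level of hairpin B was below the day 9 level of another culture for Gsc and Hesx1. The Wnt antagonist Frzb fell by 1.27 and Cyp26a1, an enzyme that degrades retinoic acid, by 2.13. Cyp26a1 read 23.1, 2.04 and 27.1 FPKM at day 9 against 105, 15.9 and 94.9 FPKM at day 6, so the hairpin B culture was below the others on both days. Adjusted p-values of these 5 genes by limma lay between 0.0169 for Cyp26a1 and 0.0494 for Eomes. Of 16 primitive streak genes tested, 3 fell (18.8%, against 0.603% of all loci) and none rose. Lower at day 9 in all cultures were 8 of the 16, against 22% of all loci. The list's median change was -0.45 against 0.03 over all loci. The pan-streak factor T was not called, with 35.4, 0.814 and 23.8 FPKM at day 9 and 51.1, 6.01 and 25.4 FPKM at day 6, and most of its difference lay in hairpin B.

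Of 14 genes on the formative and primed epiblast list 11 were lower at day 9 in all 3 cultures, against 22% of all loci. The test called 4 of the 14 lower (28.6%, against 0.603% of all loci), namely Cer1, Fgf5, Dnmt3b and Pou3f1. Cer1, also described above, had read at most 0.304 FPKM at day 3, far below the others of these 4. Fgf5, a growth factor that marks the epiblast (chromosome 5, 98683202 to 98706049), read 12.1, 3.57 and 8.34 FPKM at day 9 in hairpin A, hairpin B and scrambled, against 61.2, 24.4 and 38.4 FPKM at day 6. Every day 9 value of Fgf5 lay below every day 6 value, with a change of -2.26 ± 0.12 (SE) (limma, adjusted p = 0.00893). Dnmt3b, the de novo DNA methyltransferase of the epiblast, read 34.9, 54.4 and 30.5 FPKM at day 9 against 193, 121 and 182 FPKM at day 6, a fall with changes of -2.44 in hairpin A, -1.14 in hairpin B and -2.54 in scrambled. The POU factor Pou3f1 read 6.64, 11.5 and 4.05 FPKM at day 9 and 17.8, 30.1 and 13.6 FPKM at day 6. The list's median change was -1.08 in hairpin A, -0.37 in hairpin B and -1.06 in scrambled. Foxd3 and Lefty2 show where the cultures parted. The pluripotency repressor Foxd3 read 1.80, 13.1 and 1.34 FPKM at day 9 and 11.2, 20.9 and 7.97 FPKM at day 6, while the signal antagonist Lefty2 read 11.7, 92.2 and 7.03 FPKM at day 9 and 28.2, 75.1 and 16.1 FPKM at day 6. In hairpin B, Foxd3 differed by -0.63 and Lefty2 by 0.29, while both were more than 2-fold lower in hairpin A and scrambled, and neither gene was called.

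**Figure D2:**
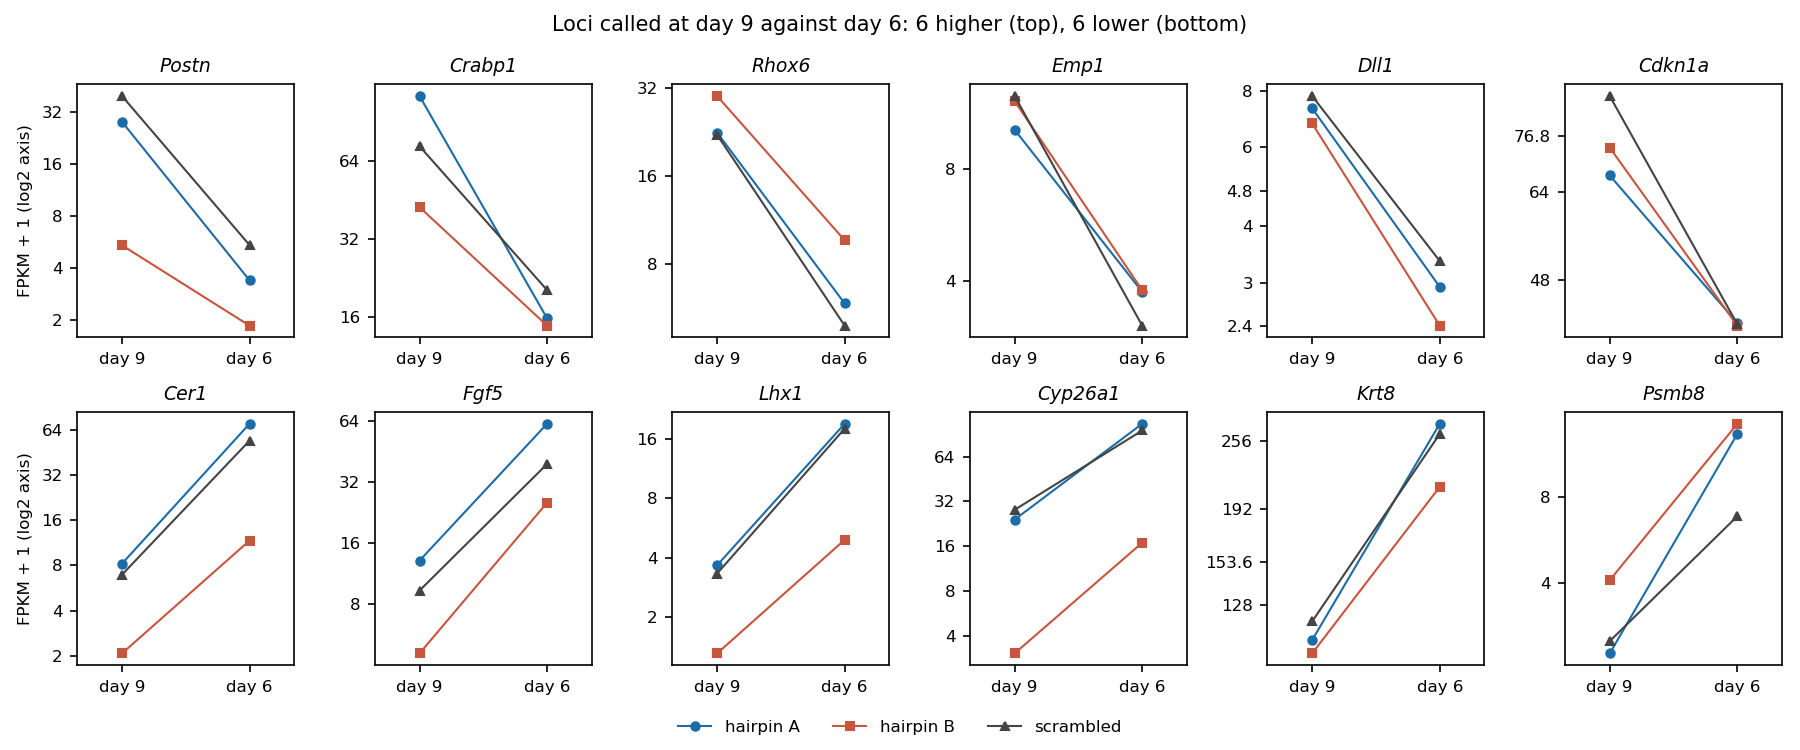
FPKM + 1 (log2 axis) of 12 loci called by limma, at day 9 (left) and day 6 (right) in each panel; a line joins the 2 libraries of a culture, and each point is 1 library. The 6 rises (top row) and the 6 falls (bottom row) slope the same way in the hairpin A, hairpin B and scrambled cultures, from different starting levels for Cer1, Lhx1 and Cyp26a1.

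Several epithelial genes fell in all 3 cultures. Krt8, a keratin of simple epithelia (chromosome 15, 101827141 to 101834773), read 109.5, 103 and 119 FPKM at day 9 in hairpin A, hairpin B and scrambled, against 274, 210.0 and 263 FPKM at day 6. Its values at day 9 were all below those at day 6, with a change of -1.16 ± 0.09 (SE) (limma, adjusted p = 0.0214). The tight junction gene Cldn6 read 87.0, 51.1 and 112 FPKM at day 9 and 201, 117 and 232 FPKM at day 6, and the epithelial splicing factor Esrp1 14.8, 19.7 and 20.1 FPKM at day 9 and 35.5, 46.1 and 41.7 FPKM at day 6. For both, too, no day 9 value reached a day 6 value. Of 19 epithelial genes tested 5 fell (26.3%, against 0.603% of all loci), which were Krt8, Krt19, Cldn6, Cldn7 and Esrp1. Lower in all cultures were 14 of the 19, against 22% of all loci. The list's median was -0.86 in hairpin A, -0.56 in hairpin B and -0.64 in scrambled. Cdh1, the adhesion protein E-cadherin, was not called (adjusted p = 0.0748 by limma), with 49.2, 105 and 47.9 FPKM at day 9 and 143, 143 and 133 FPKM at day 6. It differed by more than 2-fold in hairpin A and scrambled and by -0.44 in hairpin B. Rab25 and Crb3, a vesicle and a polarity gene of epithelia outside the list, also fell, by 1.27 and 1.11; they were chosen after their values were seen.

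Of 24 glycolysis and hypoxia genes 1 fell (4.17%, against 0.603% of all loci). Slc2a1, the glucose transporter GLUT1, read 249.6, 242 and 266 FPKM at day 9 and 588, 439 and 693 FPKM at day 6 in hairpin A, hairpin B and scrambled, a change of -1.16 ± 0.12 (SE) (limma, adjusted p = 0.0362). Of the list 12 genes were lower at day 9 in all cultures, against 22% of all loci, and its median was -0.42. The lactate dehydrogenase gene Ldha, not called, read 935, 562 and 903 FPKM at day 9 and 1361, 754 and 1568 FPKM at day 6. Vegfa, the main vascular growth factor and a hypoxia target, was higher at day 9 in every culture without being called, at 71.6, 38.3 and 83.4 FPKM against 46.0, 24.1 and 69.9 FPKM at day 6.

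Of 20 genes on the BMP and TGF-beta list 3 fell (15.0%, against 0.603% of all loci) and none rose. Bmp2, a ligand of the bone morphogenetic protein family, read 4.08, 0.957 and 3.49 FPKM at day 9 and 17.3, 3.76 and 16.6 FPKM at day 6. Id1, a target of BMP signals, read 58.0, 23.4 and 95.7 FPKM at day 9 and 108, 35.7 and 152 FPKM at day 6, and the ligand Tgfb2 9.38, 2.70 and 11.2 FPKM at day 9 and 25.7, 5.93 and 30.8 FPKM at day 6. Each of these 3 genes was lower at day 9 in all 3 cultures. Pim2, a serine-threonine kinase that favours survival, read 42.2, 32.9 and 37.9 FPKM at day 9 and 250.0, 148 and 221 FPKM at day 6, the second largest fall at -2.40 ± 0.11 (SE) (limma, adjusted p = 0.00893). The carbonic anhydrase Car2 fell by 1.72, the junction and Hippo pathway protein Amot by 1.71 and the RNA-binding pluripotency protein Lin28a by 0.88. Spink3, a secreted protease inhibitor, read 53.2, 4.24 and 69.9 FPKM at day 9 and 239, 26.7 and 252 FPKM at day 6. Vrtn, Lrrn4, Dgkk and Ltb, the last a cytokine of the tumour necrosis factor family, fell by 1.92, 1.77, 1.73 and 2.11.

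Genes that interferons are known to induce were among the falls without moving as a list. Psmb8, a subunit of the immunoproteasome, read 1.26, 3.08 and 1.49 FPKM at day 9 in hairpin A, hairpin B and scrambled, against 12.3, 13.5 and 5.85 FPKM at day 6, a change of -1.95 ± 0.24 (SE) (limma, adjusted p = 0.0412). Outside the list, the interferon-inducible GTPases Gbp1 and Irgm1 fell by 1.62 and 1.43, and were chosen after their values were seen. Irgm1 read 4.26, 5.32 and 2.70 FPKM at day 9 and 16.7, 12.5 and 9.05 FPKM at day 6. Of 16 genes tested on the list Psmb8 alone fell (6.25%, against 0.603% of all loci). The list's median was -0.54 in hairpin A, -0.36 in hairpin B and -0.02 in scrambled. Cxcl10 and Isg15, which are classical interferon targets, read lower at day 9 in both hairpin cultures and higher in scrambled. Cxcl10 read 0.813, 4.07 and 2.39 FPKM at day 9 and 3.69, 10.4 and 0.991 FPKM at day 6, and Isg15 2.21, 0.775 and 2.83 FPKM at day 9 and 3.17, 3.61 and 0.771 FPKM at day 6; neither was called.

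The promoter of Irgm1 is shown because it is a called fall with a known kind of regulatory element. It gives the 150 bases before the gene's start in GRCm38.p6 from RefSeq (chr11:48871421-48871570, minus strand), with the 2 overlapping matches to GAAANNGAAA, the core of the interferon-stimulated response element, in capitals.
Irgm1: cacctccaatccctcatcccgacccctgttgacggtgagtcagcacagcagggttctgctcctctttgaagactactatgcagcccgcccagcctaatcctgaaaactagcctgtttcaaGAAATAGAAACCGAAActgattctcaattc
The letters were searched on both strands, and 978 of the 32851 RefSeq promoters (2.98%) held at least 1 match in the 250 bases before the start. On the interferon list 7 of 18 promoters held a match. Cxcl10 and Isg15, which were not called, were among these 7, and Psmb8 was not. A match describes these letters and does not show that a factor was bound.

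The rises shared by all cultures were fewer and mixed in kind. Postn, periostin, a matrix protein of mesenchyme and heart valves (chromosome 3, 54165046 to 54194954), read 27.0, 4.40 and 38.5 FPKM at day 9 in hairpin A, hairpin B and scrambled, against 2.38, 0.850 and 4.41 FPKM at day 6. Its level was 11.3-fold, 5.18-fold and 8.73-fold that of day 6 in those cultures, and the day 9 level of hairpin B was close to the day 6 level of scrambled. The change was 2.49 ± 0.31 (SE) (limma, adjusted p = 0.0419), the largest rise called. Crabp1, a retinoic acid binding protein of neural and mesenchymal cells (chromosome 9, 54612614 to 54620916), read 113, 41.5 and 72.1 FPKM at day 9 and 14.9, 13.9 and 19.4 FPKM at day 6. All 3 day 9 values of Crabp1 were above all 3 day 6 values, a rise of 2.07 ± 0.25 (SE).

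Dll1, Gli1, Dlk1, Rhox6, Emp1 and Jam2 were further rises. Dll1, a ligand of Notch, read 6.33, 5.78 and 6.80 FPKM at day 9 and 1.93, 1.41 and 2.35 FPKM at day 6, and Gli1, a target of Hedgehog signals, 24.9, 25.5 and 24.8 FPKM at day 9 and 8.48, 11.6 and 13.8 FPKM at day 6. Neither gene's day 9 values overlapped its day 6 values, and the levels of the 3 cultures were close to each other on both days. The imprinted gene Dlk1 read 12.7, 3.02 and 25.7 FPKM at day 9 and 2.98, 0.605 and 8.23 FPKM at day 6, rising in each culture from levels that differed among them. Dlk1 was the 1 rise among 21 imprinted genes tested (4.76%, against 0.294% of all loci). Rhox6, a reproductive homeobox gene also made in trophoblast, read 21.5, 29.0 and 21.1 FPKM at day 9 and 4.88, 8.65 and 3.94 FPKM at day 6, and the epithelial membrane protein gene Emp1 9.21, 11.2 and 11.6 FPKM at day 9 and 2.74, 2.78 and 2.03 FPKM at day 6. The junction protein Jam2 stood higher in hairpin B than in the other cultures on both days, with 12.5, 49.8 and 12.9 FPKM at day 9 and 4.68, 22.7 and 3.88 FPKM at day 6. Vnn1, Sct, Cdo1, Camk2n1, Clip4 and H2-Ke6 rose by a mean of 1.08 to 1.84 on the log2 scale. Tubb2a-ps2 also rose, but it is a pseudogene that resembles tubulin genes and its reads may be shared with them.

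Cdkn1a and Psat1 rose by a mean of less than 2-fold. Cdkn1a, the cell cycle inhibitor p21, read 66.5, 73.0 and 86.6 FPKM at day 9 in hairpin A, hairpin B and scrambled, against 40.7, 40.3 and 40.6 FPKM at day 6. Its day 6 levels were almost equal, its day 9 levels were all higher, and the change was 0.87 ± 0.10 (SE) (limma, adjusted p = 0.0400). Psat1, an enzyme of serine synthesis, read 177, 151 and 177 FPKM at day 9 and 94.8, 90.0 and 98.9 FPKM at day 6. It was the 1 rise among 21 genes of amino acid supply and endoplasmic reticulum stress (4.76%, against 0.294% of all loci). Higher at day 9 in all cultures were 14 of the 21, against 25.9% of all loci, with a list median of 0.39. Chac1 and Asns, targets of the stress factor ATF4, were not called, at 0.91 and 0.62. Of 30 replication and mitosis genes none rose or fell, against 0.897% of all loci called. Lower at day 9 in all cultures were 17 of the 30, against 22% of all loci, and the list's median was -0.17. The mitotic kinase Plk1 read 42.4, 77.3 and 42.6 FPKM at day 9 and 77.3, 89.3 and 74.9 FPKM at day 6. Col4a2, a basement membrane collagen, read 32.7, 18.5 and 31.0 FPKM at day 9 and 13.5, 11.2 and 14.4 FPKM at day 6. It was the 1 rise among 18 collagen genes tested (5.56%, against 0.294% of all loci).

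As lists, genes of the heart's contractile filaments were higher at day 9 mainly in the scrambled culture, and none passed the test. Tnnt2, Tnni1 and Myl7 were more than 2-fold higher in hairpin A as well. Actc1, cardiac alpha actin (chromosome 2, 113873024 to 113878547), read 15.4, 4.30 and 139.8 FPKM at day 9 in hairpin A, hairpin B and scrambled, against 7.86, 4.95 and 5.45 FPKM at day 6. The scrambled day 9 library was 25.6-fold above its day 6 library, hairpin A was 1.96-fold above and hairpin B was at 0.868 of its day 6 level. Tnnt2, cardiac troponin T, read 9.40, 1.29 and 55.5 FPKM at day 9 and 0.932, 0.408 and 4.32 FPKM at day 6. The slow troponin gene Tnni1 read 7.48, 1.41 and 53.9 FPKM at day 9 and 0.510, 0.447 and 11.5 FPKM at day 6. Both were higher at day 9 in each culture. The log2 changes in hairpin A, hairpin B and scrambled were 2.43, 0.70 and 3.41 for Tnnt2 and 2.49, 0.74 and 2.14 for Tnni1. For both genes hairpin A ended below the scrambled culture. Their adjusted p-values by limma were 0.0904 and 0.0748.

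The thick filament genes named next had the same order of cultures in their day 9 levels. Myl7, the atrial myosin light chain (chromosome 11, 5796639 to 5798785), read 33.7, 3.14 and 138 FPKM at day 9 and 5.66, 1.59 and 22.3 FPKM at day 6. Its log2 changes were 2.38 in hairpin A, 0.68 in hairpin B and 2.57 in scrambled, so hairpin A was below scrambled on both days with a similar change. Myl4, a light chain of embryonic and atrial muscle, read 13.5, 6.09 and 66.9 FPKM at day 9 and 3.70, 2.03 and 9.61 FPKM at day 6, and was the gene nearest to a call on this list (limma, adjusted p = 0.0553). Myl4 was also at least 2-fold higher in every culture. Myh6, the alpha heavy chain, read 4.23, 1.02 and 31.1 FPKM at day 9 and 2.58, 0.762 and 5.27 FPKM at day 6, and the ventricular light chain Myl2 1.36, 0.664 and 15.8 FPKM at day 9 and 0.764, 0.357 and 0.661 FPKM at day 6. Hairpin B stayed at or under 1.02 FPKM for Myh6 and Myl2 on both days. Myl3, another ventricular light chain, read 6.37, 1.23 and 27.1 FPKM at day 9 and 15.9, 4.42 and 12.7 FPKM at day 6, lower in both hairpin cultures and higher in scrambled.

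Of 8 thick filament genes tested, 6 were higher in every culture, against 25.9% of all loci. As a list, the 8 had a median change of 0.54 in hairpin A, 0.18 in hairpin B and 2.32 in scrambled. Their summed FPKM was 65.8, 13.8 and 303 at day 9 in hairpin A, hairpin B and scrambled, against 35.8, 11.1 and 62.9 at day 6. The 11 thin filament genes tested had medians of 0.09, -0.17 and 0.85 in those cultures. Other members read otherwise. Tnnc1, the troponin C of heart and slow muscle, read 12.1, 2.57 and 36.4 FPKM at day 9 and 31.7, 13.4 and 35.1 FPKM at day 6, level in scrambled and lower in both hairpin cultures. Acta1, skeletal alpha actin, was lower at day 9 in each culture, with 10.4, 30.3 and 14.7 FPKM against 32.8, 74.7 and 21.6 FPKM at day 6, and was not called. The difference between the hairpin cultures' changes and the scrambled change was tested for every locus in the 12 time course libraries, and no locus of 13746 passed by limma, with 52 at an unadjusted p under 0.05. The scrambled side of that test is 1 culture, which is assumed to vary as the 2 hairpin cultures do, since the spread comes from them. For Actc1 that difference was -4.09 on the log2 scale (limma, adjusted p = 1). With hairpin B alone at days 6 and 9, 102 loci passed, and with hairpin A alone 0 passed, with 277 at an unadjusted p under 0.05; each side then had 1 culture, and the spread came from the hairpin libraries of days 0 and 3.

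**Figure D3:**
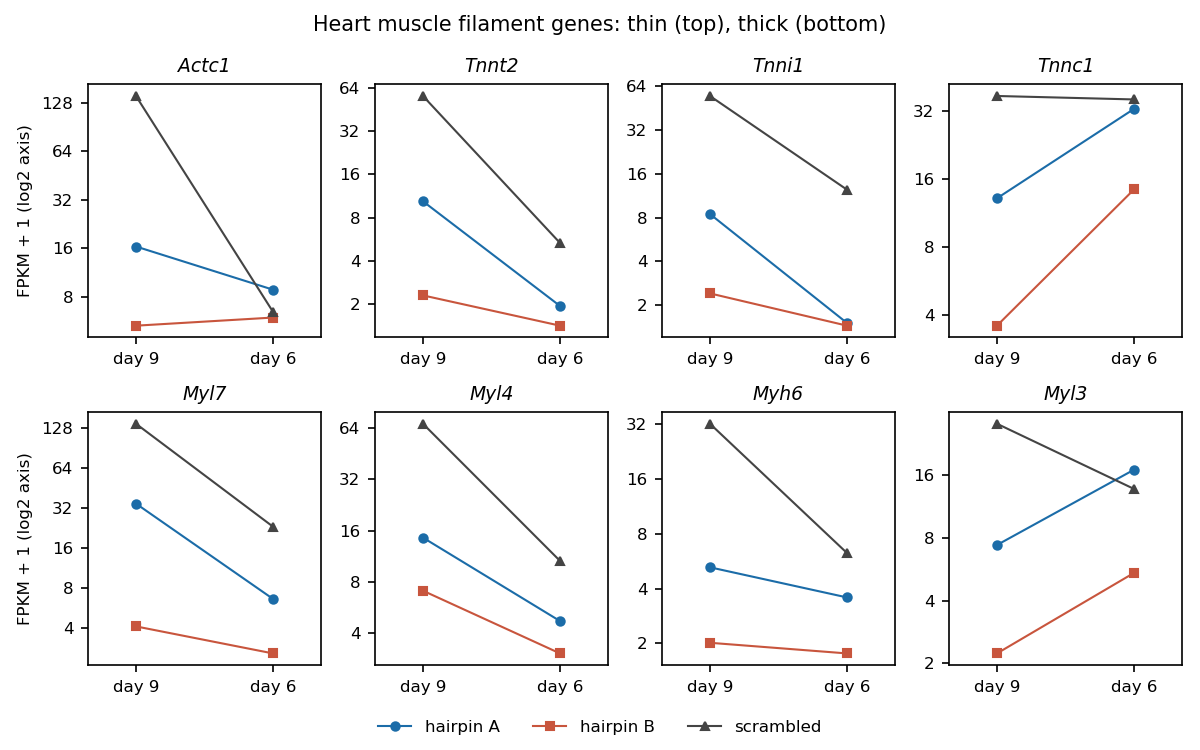
FPKM + 1 (log2 axis) of 8 heart muscle genes at day 9 (left) and day 6 (right) in each panel, with a line for each culture and 1 library at each point. The scrambled culture was highest at day 9 in all 8 panels, reaching 140 FPKM for Actc1, and hairpin B was lowest.

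The promoters of Actc1 and Myl7 are shown because they had the highest day 9 levels in the scrambled culture among the filament genes that were more than 2-fold higher there, and both hold a CArG box, the binding motif of serum response factor. Each line gives the 150 bases before the start in GRCm38.p6 from RefSeq, chr2:114052876-114053025 for Actc1 and chr11:5898783-5898932 for Myl7, both on the minus strand, with the CArG box in capitals.
Actc1: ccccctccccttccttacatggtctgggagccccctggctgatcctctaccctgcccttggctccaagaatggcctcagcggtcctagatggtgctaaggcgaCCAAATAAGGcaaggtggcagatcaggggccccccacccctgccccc
Myl7: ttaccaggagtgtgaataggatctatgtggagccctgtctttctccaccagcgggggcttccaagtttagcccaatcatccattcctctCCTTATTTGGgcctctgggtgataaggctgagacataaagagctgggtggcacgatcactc
The box lies 47 to 38 bases before the start in Actc1 and 61 to 52 bases before it in Myl7. Searched on both strands, it was found in 482 of 32851 promoters (1.47%) within 250 bases before the start, in 2 of 12 thin filament genes and in 3 of 9 thick filament genes. As above, this describes letters and not binding.

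Several regulators of heart progenitors read lower at day 9, and none passed the test. Gata4 read 3.65, 1.54 and 6.65 FPKM at day 9 and 8.10, 1.75 and 12.9 FPKM at day 6 in hairpin A, hairpin B and scrambled, and Isl1, a factor of the second heart field, 5.87, 0.738 and 9.40 FPKM at day 9 and 12.4, 1.16 and 15.4 FPKM at day 6. Nkx2-5, a homeobox factor of the heart, read 0.265, 0.270 and 0.678 FPKM at day 9 and 1.33, 0.407 and 3.16 FPKM at day 6. It was near the floor in hairpin B on both days and in hairpin A at day 9. Of 21 regulators tested 8 were lower in all cultures and 3 higher in all, against 22% and 25.9% of all loci, with a median of -0.12. Hand1, a basic helix-loop-helix factor of the heart and of extraembryonic tissue, went apart between cultures, at 4.40, 11.3 and 6.23 FPKM at day 9 and 7.43, 1.81 and 24.9 FPKM at day 6. It was higher at day 9 in hairpin B and lower in hairpin A and scrambled.

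Of the blood and vessel genes tested, 1 vessel gene passed the test, too few to tell from the 0.897% of all loci that passed. The embryonic globin Hbb-bh1 read 72.0 FPKM in hairpin A and 142 FPKM in scrambled at day 9, against 93.6 and 426 FPKM in them at day 6. In hairpin B it was listed at 0 at day 9 and read 0.944 FPKM at day 6. None of 13 primitive blood genes was called, and their median change was -0.11. Of 20 endothelial genes 1 fell (5.00%, against 0.603% of all loci) and none rose. The list's median was 0.49 in hairpin A, -0.072 in hairpin B and 0.27 in scrambled. Flt1, a VEGF receptor, was the fall, with 5.12, 1.67 and 4.38 FPKM at day 9 and 11.8, 3.93 and 10.6 FPKM at day 6. Some other members were higher without being called. Cldn5, a tight junction gene of endothelium, read 5.87, 2.12 and 13.2 FPKM at day 9 and 1.08, 2.92 and 2.50 FPKM at day 6, and Cdh5, the endothelial cadherin, 5.15, 0.189 and 8.52 FPKM at day 9 and 1.04, 0.203 and 3.48 FPKM at day 6. Both were over 2-fold higher at day 9 in hairpin A and scrambled and not in hairpin B.

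Neural genes were higher at day 9 in the hairpin A and scrambled cultures. Pax6, a factor of neural progenitors, read 8.74, 4.29 and 7.25 FPKM at day 9 in hairpin A, hairpin B and scrambled, against 1.91, 5.34 and 1.29 FPKM at day 6. Sox1, an early neural marker, read 20.5, 3.02 and 12.0 FPKM at day 9 and 7.19, 5.30 and 2.92 FPKM at day 6, and the neuronal RNA-binding gene Elavl4 7.81, 1.28 and 6.64 FPKM at day 9 and 1.65, 1.18 and 1.03 FPKM at day 6. In these genes hairpin A and scrambled were more than 2-fold up, while hairpin B was level or lower. Of 20 neural genes none was called, against 0.897% of all loci. At least 2-fold higher were 11 in hairpin A, 0 in hairpin B and 10 in scrambled, against 3.46%, 1.69% and 3.43% of all loci. For a list of this size, 0 calls and 0 in hairpin B are near those shares. The list's median change was 1.10, 0.10 and 1.03 in those cultures. Shh, the Sonic hedgehog ligand of notochord and floor plate (chromosome 5, 28783379 to 28793641), read 46.8, 0.230 and 47.6 FPKM at day 9 and 11.2, 1.75 and 10.3 FPKM at day 6, and its partner in these tissues, Foxa2, 32.2, 1.52 and 29.5 FPKM at day 9 and 33.9, 5.75 and 32.8 FPKM at day 6. Shh was 4.16-fold higher in hairpin A and 4.64-fold higher in scrambled, and was at 0.132 of its day 6 level in hairpin B.

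The 5 largest rises of the hairpin A culture and of the scrambled culture had Col3a1 and Vtn in common, and the scrambled ones also held Actc1. Col3a1, a fibrillar collagen, read 27.2, 1.15 and 65.1 FPKM at day 9 and 0.980, 0.918 and 1.64 FPKM at day 6. Vtn, the adhesive glycoprotein vitronectin, read 39.4, 0.417 and 46.1 FPKM at day 9 and 1.06, 0.199 and 1.78 FPKM at day 6, and Nr2f1, an orphan nuclear receptor of neural tissue, 23.0, 1.01 and 25.9 FPKM at day 9 and 0.958, 0.242 and 1.11 FPKM at day 6. Hairpin B was at or under 1.15 FPKM for all 3. Dbx1, a homeobox factor of the neural tube, read 17.4, 0.457 and 16.8 FPKM at day 9 and 0.526, 0.0410 and 0.253 FPKM at day 6, and the ligand Wnt1 14.7, 0.856 and 13.1 FPKM at day 9 and 1.06, 0 and 0.961 FPKM at day 6. Fgf15, a growth factor of the neural tube, read 98.5, 5.25 and 96.5 FPKM at day 9 and 11.8, 4.12 and 16.1 FPKM at day 6. At day 9 hairpin B was the lowest culture for each of these 6 genes, and Col3a1 was over 2-fold lower in hairpin A than in scrambled. Wnt1 and Fgf15 were not among the 5 largest rises of either culture, and Syce1l was among those of hairpin A, with 15.9, 2.20 and 8.56 FPKM at day 9 and 0, 0.121 and 2.35 FPKM at day 6. None of these 7 was called over the 3 cultures (adjusted p by limma from 0.0748 for Wnt1 to 0.124 for Col3a1). Hhex, a factor of anterior endoderm, was among the largest falls of the scrambled culture, with 4.83, 7.19 and 4.00 FPKM at day 9 and 28.3, 8.58 and 28.3 FPKM at day 6.

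**Figure D4:**
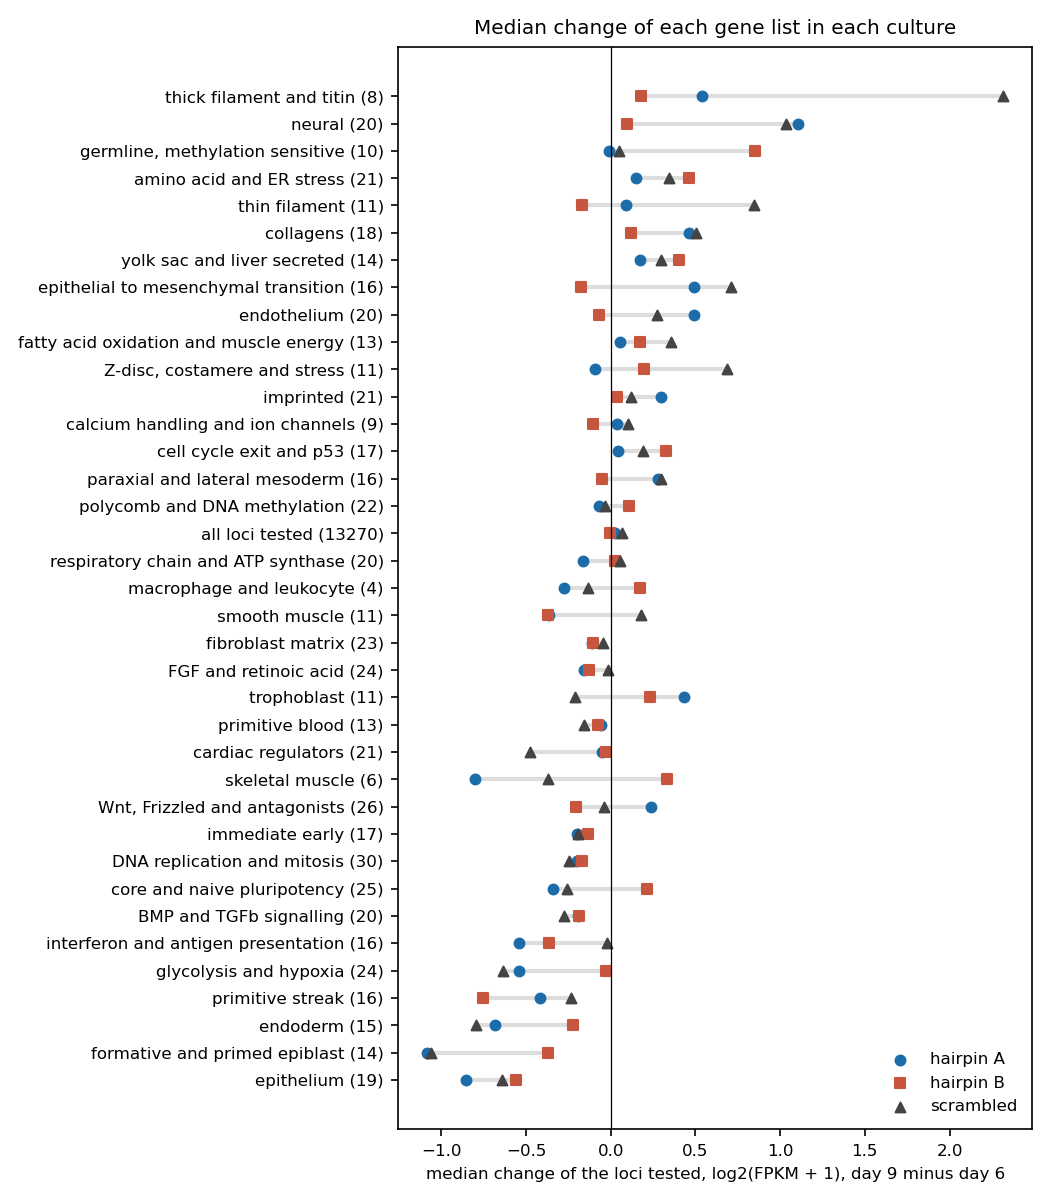
Median change (difference of log2(FPKM + 1), day 9 minus day 6) of the loci tested in each of 36 gene lists and over all loci, with 1 symbol for each culture and the number tested in brackets. Thick filament genes were highest in scrambled (2.32), neural genes stood at 1.10 in hairpin A, 0.10 in hairpin B and 1.03 in scrambled, and epithelial and formative genes were below 0 in all 3.

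Pluripotency genes parted along the same line. Of 25 tested, Lin28a alone fell (4.00%, against 0.603% of all loci). The medians were -0.34 in hairpin A, 0.21 in hairpin B and -0.26 in scrambled. Utf1, a chromatin factor of pluripotent cells, read 21.2, 298 and 19 FPKM at day 9 and 86.9, 365 and 78.6 FPKM at day 6. Nanog, a core factor of pluripotency, read 45.4, 256 and 44.3 FPKM at day 9 and 76.4, 205 and 59.4 FPKM at day 6, and Tcl1, a stem cell cofactor of the kinase Akt, 8.44, 62.4 and 4.90 FPKM at day 9 and 3.50, 25.8 and 3.51 FPKM at day 6. At day 9 Utf1, Nanog and Tcl1 stood higher in hairpin B than in the other cultures. Nanog was above its own day 6 level in hairpin B alone. Tcl1 was above its day 6 level in every culture, with log2 changes of 1.07 in hairpin A, 1.24 in hairpin B and 0.39 in scrambled. Lin28a was lowest in hairpin B on both days. It read 160, 109 and 133 FPKM at day 9 and 276, 186 and 283 FPKM at day 6 in hairpin A, hairpin B and scrambled. Sox2, shared by pluripotent and neural cells, was level or slightly higher at day 9 in each culture, at 143, 412 and 115 FPKM against 127, 329 and 104 FPKM at day 6.

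The largest rises of hairpin B were genes of the transient state of stem cell cultures that resembles the 2-cell embryo. Zscan4c, a zinc finger gene that marks that state (chromosome 7, 11591093 to 11595896), read 1.36, 20.9 and 0.806 FPKM at day 9 in hairpin A, hairpin B and scrambled, against 0.677, 0.463 and 0.972 FPKM at day 6. Zscan4f read 1.79, 24.5 and 1.08 FPKM at day 9 and 1.08, 0.532 and 0.975 FPKM at day 6, and Tcstv3 and Gm4340 read 24.1 and 67.6 FPKM at day 9 in hairpin B against 0.626 and 2.14 FPKM at day 6. In hairpin A and scrambled the day 9 level of these 4 genes was at most 4.2 FPKM. They belong to families of near-identical copies, so reads may be split among members and the values of single genes are uncertain. Before differentiation, at day 0, Zscan4c had read 23.0, 20.0 and 40.2 FPKM in hairpin A, hairpin B and scrambled, and at day 3 it read 1.32, 1.53 and 1.68 FPKM. Hairpin B thus returned at day 9 to a level close to its own day 0.

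Germline genes that DNA methylation is known to silence were higher at day 9 in hairpin B too. Dazl, an RNA-binding protein of germ cells, read 3.92, 18.2 and 4.32 FPKM at day 9 and 2.32, 4.10 and 2.39 FPKM at day 6, and Mael, of the piRNA pathway, 2.69, 19.7 and 2.67 FPKM at day 9 and 3.10, 6.58 and 2.75 FPKM at day 6. The list's median over 10 genes was -0.01 in hairpin A, 0.85 in hairpin B and 0.05 in scrambled, and none was called. The imprinted growth factor Igf2 read 421, 195 and 614 FPKM at day 9 and 426, 87.0 and 834 FPKM at day 6, so it was over 2-fold higher at day 9 in hairpin B, below the other cultures on both days.

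The genes that fell at the late step had taken different courses before it. Cer1 had read 0.176, 0.304 and 0.152 FPKM at day 3 in hairpin A, hairpin B and scrambled, and Cyp26a1 0.529, 0.494 and 0.743 FPKM, so both peaked at day 6. Fgf5 had read 32.7, 46.4 and 51.5 FPKM at day 3, and its day 9 level was the lowest since day 0 in hairpin A and scrambled and the lowest of all 4 days in hairpin B. Both steps share the day 6 libraries, so a level that is high by error at day 6 enters them with opposite signs. In a limma test of the late change minus the day 6 minus day 3 change over 13463 loci, 1 was higher (0.00743%) and 2 were lower (0.0149%), with 1537 at an unadjusted p under 0.05. Sfrp2, a secreted Wnt antagonist, was the higher one, at 24.8, 19.5 and 14.4 FPKM at day 9, 18.6, 18.2 and 13.7 FPKM at day 6 and 95.9, 75.5 and 65.9 FPKM at day 3 in hairpin A, hairpin B and scrambled. It was lower at day 6 than at day 3 in each culture, and at day 9 it was above its day 6 level. Anxa2, a membrane-binding annexin, and Pga5, a pepsinogen, were the lower ones. Anxa2 read 68.5, 78.4 and 83.0 FPKM at day 9, 89.0, 80.0 and 95.7 FPKM at day 6 and 19.3, 20.1 and 18.2 FPKM at day 3, and Pga5 10.4, 6.71 and 18.2 FPKM, 25.8, 15.9 and 28.6 FPKM and 0.0688, 0.0643 and 0.258 FPKM on those days. Both were higher at day 6 than at day 3 and lower at day 9 than at day 6 in each culture. All 3 had an adjusted p of 0.0321 by limma, and no locus passed limma without the scrambled culture or without hairpin A, where 452 and 424 had an unadjusted p under 0.05.

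**Figure D5:**
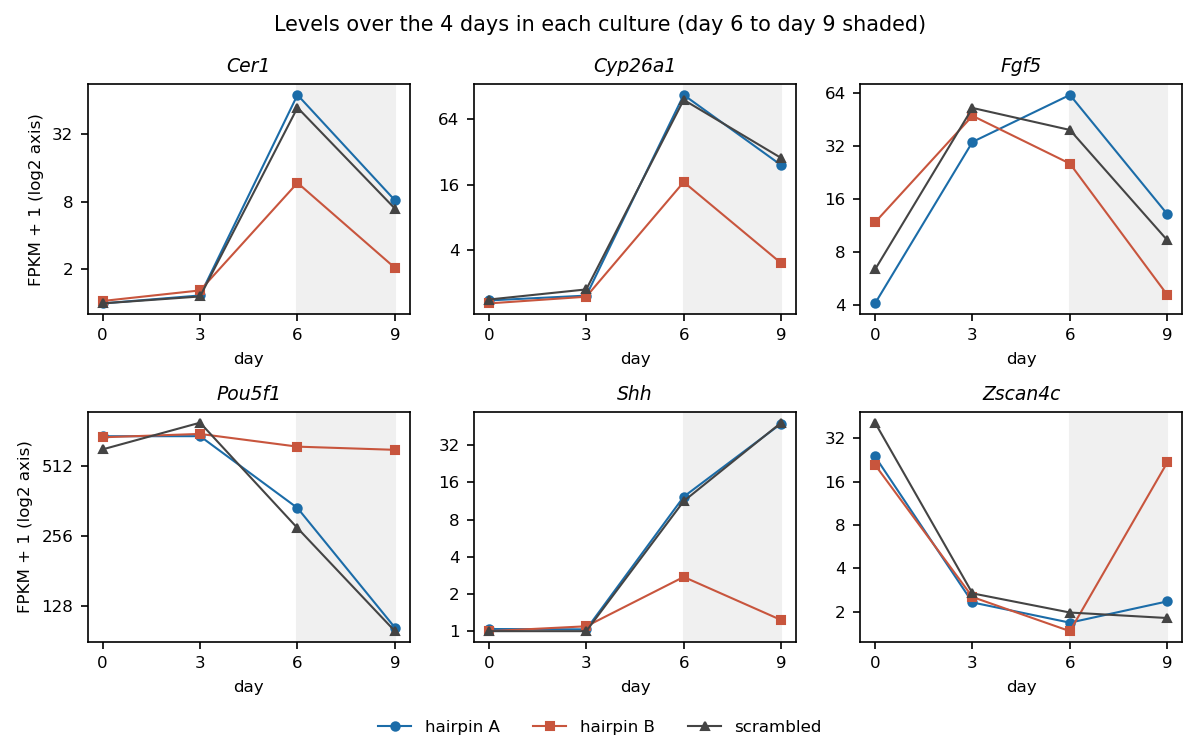
FPKM + 1 (log2 axis) of 6 genes at days 0, 3, 6 and 9, 1 line for each culture and 1 library for each point, with the late step shaded. Cer1 and Cyp26a1 peaked at day 6 in all cultures, Pou5f1 was highest in hairpin B at days 6 and 9, Shh was higher at day 9 in hairpin A and scrambled, and Zscan4c was higher at day 9 in hairpin B.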

How the data were processed

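The authors deposited FPKM per locus for 12 time course libraries on mm9. TopHat 1.14, Bowtie 0.12.7 and Cufflinks 1.3.0 are named by the submitters' processing notes. The authors' 8 columns of ratio values were not used, and the 25 names that spreadsheet software had turned into dates were not printed. Of 22102 entries, loci of at least 300 bp with at least 1 FPKM in at least 2 of the 6 libraries and no status "fail" were kept, which left 13270. Changes were tested with limma 3.58.1 (R 4.3.3, eBayes with trend) on log2(FPKM + 1), with culture as a block and 2 residual degrees of freedom. All p-values were two-sided and adjusted by Benjamini-Hochberg over all loci tested. The same test was made on the late change minus the earlier change (9 libraries, as it uses days 3, 6 and 9) and on the depleted minus scrambled change (12 libraries). Scripts were tested on simulated data. Culture pairs the libraries: deviations from the day means at day 9 and day 6 had correlations of 0.62, 0.79 and 0.71 in hairpin A, hairpin B and scrambled.

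Named genes were the 15 largest called rises and 15 largest called falls, the 10 that moved most in every culture in each direction, the 5 largest rises and falls of each culture, those called by the other tests, and up to 6 of each list by mean change. The other 20 genes were chosen after their values were seen: Asns, Cldn7, Crb3, Foxa2, Gbp1, Hand1, Igf2, Irgm1, Isg15, Lefty2, Mael, Myl3, Nanog, Rab25, Sox1, Sox2, Tcl1, Vegfa, Wnt1 and Zfp42. The comparison and the 37 gene lists were chosen with earlier results of these data known, and some genes are on more than 1 list. The result of 1 list is not reported here. With no statement on strand, overlapping and antisense genes are not told apart by these values.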

Additional observations from a re-analysis of the deposited data

Results flagged for a closer look

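The 110 genes named here and the list medians were searched, and not all loci tested. For 3 of these genes the scrambled culture moved one way between the days and both hairpin cultures moved the other way. Myl3 and Isg15 of these had been chosen after their values were seen, and the pattern was not counted over all loci. Each of these changes was at least 0.3 on the log2 scale. Myl3, a ventricular myosin light chain, changed by -1.20 in hairpin A, -1.28 in hairpin B and 1.04 in scrambled, and the mean of the hairpin changes minus the scrambled change was -2.28. The same difference was -2.04 for Cxcl10 and -1.99 for Isg15. In the limma test of that difference none of the 3 passed (adjusted p = 1 for each).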

How the results depend on the processing

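The 119 calls over 3 cultures depended on which loci and cultures entered. By limma there were 0 calls with no filter on low values (3662 loci at an unadjusted p under 0.05), 205 at a minimum of 5 FPKM, 63 after quantile normalization, 16 with loci under 300 bp kept, 0 without the replicate block (1085 loci at an unadjusted p under 0.05) and 4838 with array weights. The other alternatives gave 89 to 139 calls, among them 104 in a fit of all 12 libraries, which shared 51 with the 119. The cause was not tested. Leaving out each culture in turn, which lowers the residual degrees of freedom, gave 16 (without hairpin A), 26 (without scrambled) and 5390 calls (without hairpin B).

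Among the genes of the lists the 31 calls became 0 with no filter, 7 with short loci kept, 0 without the block, 17 in a fit of all 12 libraries and 319 with array weights, and 9, 14 and 356 with hairpin A, scrambled or hairpin B left out. Of the 30 genes named as the largest called changes, 0, 9, 0 and 17 passed under the first 4 of these settings and 10 to 30 with a culture left out. Loci 2-fold in every culture numbered 56, against 208 with a pseudocount of 0.1 and 75 to 498 with a culture left out. That pseudocount also gave 1505, 962 and 1334 loci at least 2-fold apart in hairpin A, hairpin B and scrambled, in place of 847, 388 and 756, and the 5 FPKM minimum 551, 231 and 456.

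The 3 calls of the late minus the earlier change became 5 with a pseudocount of 0.1, 0 with no filter (limma, 2002 at an unadjusted p under 0.05), 5 with short loci kept and 7 without the block, and 0 to 2108 with a culture left out. The 0 calls of the depleted minus the scrambled change became 2 with short loci kept and 0 to 102 with a hairpin culture left out of days 6 and 9, which leaves 1 culture on each side.

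Named genes that changed sign were not called. Hand1 read 0.75 without scrambled and 0.15 without hairpin A. Without hairpin B, Igf2 read -0.23, Isg15 0.37, Mael -0.092 and Zfp42 -0.12, and with array weights Igf2 read -0.14, Isg15 0.28 and Zfp42 -0.078. No scaling moved the median of all loci by more than 0.1. With 1 library for each culture and day, depth limits low loci, which lie near the floor of 3 fragments.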
